A study of Mus musculus with 6 samples.

Results

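The transcripts described here are those of 33 genes for integrins and the proteins that attach them to the cytoskeleton, of 22964 genes in the deposited table. They were chosen by gene name, with no threshold on measured values: 12 integrin alpha chains, 8 integrin beta chains, 11 focal adhesion proteins (called adaptors below) and 2 tetraspanins. The cells were meningeal lymphatic endothelial cells of untreated, wild type male C57BL/6J mice. There were 3 samples from old mice aged 20 to 24 months and 3 samples from young mice aged 2 to 3 months. All samples were collected by flow cytometry as cells that lacked CD45, a leukocyte surface protein, and carried CD31, an endothelial protein, and podoplanin, which marks lymphatic but also some stromal cells. The animals came from a commercial breeder or a national ageing colony, and the labels used here do not say which source, how many animals or what pooling lay behind each sample. P-values therefore measure how much these samples scatter, and that scatter may be technical.

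An integrin is a pair of an alpha and a beta chain that spans the cell membrane. The outer parts bind matrix proteins or receptors on other cells, and the short inner tails are held by talin and kindlin, which switch the pair to its binding state. Vinculin, paxillin, focal adhesion kinase and the complex of integrin-linked kinase, PINCH and parvin then join the tails to actin and to signalling. In lymphatic vessels, integrins of the beta1 family connect the endothelium to the surrounding matrix, and stretch of that connection is known to enhance signalling by the VEGF-C receptor.

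The ends of the inner tails of Itgb1, Itgb2, Itgb5 and Itgb8 are shown first. Among these genes the log2 fold changes furthest from 0 were those of the beta chains Itgb2, Itgb7 and Itgb5. Those of Itgb2, at −2.65 (SE 1.18), and Itgb7, at 1.49 (SE 2.15), were imprecise. The sequences are the last 120 coding bases, stop codon included, of the principal GENCODE M21 transcript in GRCm38. They are read 5′ to 3′ on the coding strand. Capitals mark the codons of each NPxY-type motif (asparagine, proline, any residue, then tyrosine or phenylalanine), a type of site that talin or kindlin binds. Sites of this kind without the proline were not searched for, so fewer marked motifs need not mean fewer binding sites.
Itgb1 (chr8:128726133-128732088, plus strand, across an intron): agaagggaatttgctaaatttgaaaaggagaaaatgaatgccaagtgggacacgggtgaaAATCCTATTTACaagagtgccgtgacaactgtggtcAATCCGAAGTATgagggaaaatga
Itgb2 (chr10:77564748-77565240, plus strand, across an intron): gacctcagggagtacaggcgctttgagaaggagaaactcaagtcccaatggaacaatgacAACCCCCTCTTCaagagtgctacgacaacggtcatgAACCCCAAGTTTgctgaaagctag
Itgb5 (chr16:33947858-33948752, plus strand, across an intron): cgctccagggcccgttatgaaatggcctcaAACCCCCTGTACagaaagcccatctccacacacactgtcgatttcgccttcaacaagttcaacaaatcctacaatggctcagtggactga
Itgb8 (chr12:119163117-119163236, minus strand): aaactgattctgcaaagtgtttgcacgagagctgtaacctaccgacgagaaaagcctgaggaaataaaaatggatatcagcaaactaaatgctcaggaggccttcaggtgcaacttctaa
Of the 8 beta chains, 3 (Itgb1, Itgb2 and Itgb7) held 2 such motifs in this window and 3 (Itgb3, Itgb5 and Itgb6) held 1. Itgb4 and Itgb8 held 0. The window need not cover a whole tail, so a count of 0 is for the window alone. The protein of Itgb4 is far longer, with 1802 residues against 767 in Itgb8 and 806 in Itgb7. On the other side of the pair, 9 of the 12 alpha chains encoded the membrane-side motif known as GFFKR, which helps to hold the pair at rest. Its codons in Itga4 are given beside those at the same place in the 3 chains that encode a changed motif.
Itga4: GGATTCTTTAAAAGA
Itga8: GGATTCTTTGATAGA
Itga10: GGCTTCTTTACCCGT
Itga11: GGTTTTTTTAAAAGT

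The samples held 14285794 to 20886836 estimated counts in the old group and 15733100 to 21043945 in the young group. Levels are given in CPM, the usual scaling of a count to its library size, here TMM-adjusted, in the order of sample numbers 1, 2 and 3 of each group. The 8 lymphatic endothelial markers were present in all samples and summed to 14253 to 17329 CPM in old and 9098 to 11176 CPM in young cells. Markers of other cells were present too. The 6 blood endothelial markers, none at 0 in any sample, summed to 1192 to 1415 CPM in old and 584 to 646 CPM in young cells, without overlap. The 14 leukocyte markers summed to 1045 to 1885 CPM in old and 728 to 4102 CPM in young cells, and Cd52 and Tyrobp were at 0 in a sample each. Mrc1 alone gave 414 to 739 CPM of this in old and 362 to 452 CPM in young cells. It was the largest part of the sum in old samples 1 and 3 and in young sample 1. In young sample 1 Mrc1 had 401 CPM, where the leukocyte marker Ptprc had 0.993 CPM. Which cells the Mrc1 transcripts came from was not tested. The 7 fibroblast markers summed to 2281 to 2465 CPM in old and 4521 to 6866 CPM in young cells. The 9 pericyte and smooth muscle markers summed to 859.7 to 2016 CPM in old cells, highest in old sample 1, and 625 to 959 CPM in young cells. In bulk RNA, fewer cells of a type and less RNA per cell cannot be told apart.

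Of the 33 genes, 32 passed the filter on low counts, and Itga2b did not. None of the 32 passed the edgeR quasi-likelihood test after Benjamini-Hochberg adjustment over all genes, where the background was 0% of 15394 genes. DESeq2 called 130 genes and limma-voom called 3, and none of these was a member. At an unadjusted p under 0.05, edgeR counted 4 members: Itga4, Lims1 and Fermt2, higher in old cells, and Itgb5, lower in old cells. That is 12.5% of the members tested, against a background of 5.56% of all genes (2.86% higher and 2.7% lower). The 4 shrank to 1 without old sample 1 (Pxn, not among the 4) or without young sample 2 (Fermt2), and to 2 without old sample 3. With library size as the only scaling the split of 3 higher and 1 lower became 0 higher and 3 lower, while the median log2 fold change of all genes moved to −0.12 from 0.02. In 5 members every old sample lay above every young sample, namely Itgb1, Itgb4, Lims1, Fermt2 and Vcl, against a background of 5.56% of all genes. No member had every old sample below every young sample, against a background of 6.44%.

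**Figure D1:**
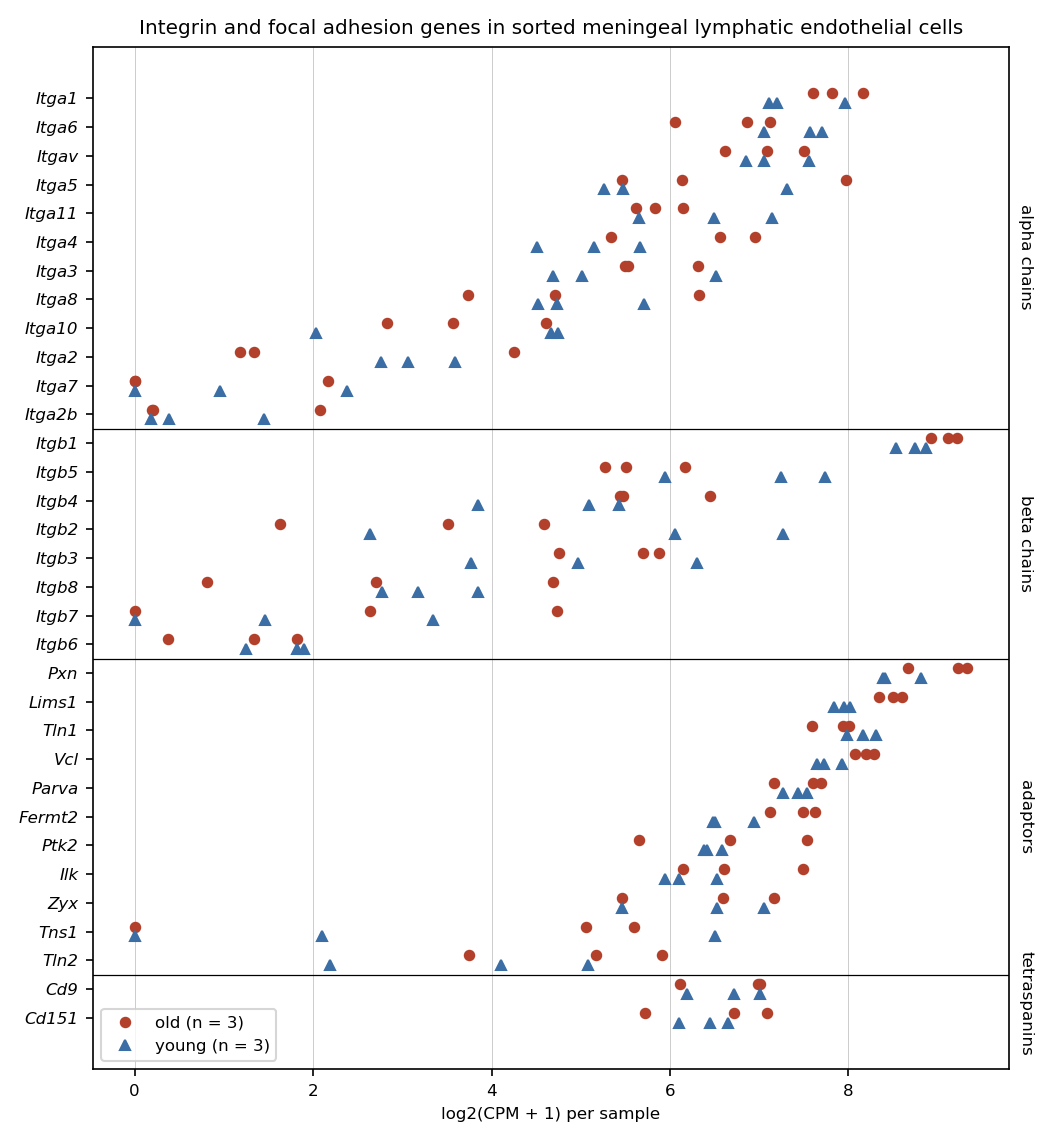
Level of each of the 33 genes in every sample, as log2(CPM + 1) on the horizontal axis, with 3 old samples as circles and 3 young samples as triangles. Itgb1, Pxn and Lims1 lie furthest right, and Itgb1, Itgb4, Lims1, Fermt2 and Vcl show circles to the right of all triangles.

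Itgb1, the beta chain shared by most matrix-binding integrins, was the most abundant member by its mean over all 6 samples, both in CPM and per length of transcript. In old samples 2 and 3 and in young sample 3 the paxillin gene Pxn had the higher CPM. Itgb1 had 553, 484 and 595 CPM in old samples, against 368, 466 and 428 CPM in young samples. The groups did not overlap, and the lowest old sample exceeded the highest young sample by little. In the edgeR fit the log2 fold change was 0.37 (SE 0.20), with edgeR unadjusted p = 0.103 and adjusted p = 0.891. Per kilobase of exon, Itgb1 (chr8:128685654-128733200 in GRCm38, plus strand) averaged 133 ± 13.8 CPM in old and 103 ± 12.1 CPM in young cells (SD, n = 3 each).

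Itgb5, which pairs with alphav and binds vitronectin, was lower in old cells with the smallest p of all members. It had 37.6, 70.8 and 44.6 CPM in old samples, against 60.5, 212 and 151 CPM in young samples. Young sample 1 lay among the old samples, and young samples 2 and 3 lay far above them. The log2 fold change was −1.47 (SE 0.51), or 0.361-fold, with edgeR unadjusted p = 0.0181 and adjusted p = 0.856. Itgb5 (chr16:33829665-33949338, plus strand) shares at least 300 bases at 99.7% identity with a processed pseudogene, so its count depends on how reads were divided. The sum of the 14 leukocyte markers was also highest in young samples 2 and 3, at 3133 and 4102 CPM, with 728 CPM in young sample 1. The part of leukocyte RNA in the values of Itgb5 was not tested.

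Itgb2, the beta chain that is restricted to leukocytes, had the lowest fold change of any member. It had 2.10, 10.4 and 23.1 CPM in old samples, against 5.21, 153 and 65.4 CPM in young samples. Young samples 2 and 3 were the high ones, and young sample 1 lay among the old samples. The log2 fold change was −2.65 (SE 1.18), with edgeR unadjusted p = 0.0520 and adjusted p = 0.888, and it ran from −3.58 to −1.57 when each sample was left out in turn. The 14 leukocyte markers, 13 of which had a negative log2 fold change, summed to 1045, 1885 and 1212 CPM in old samples and 728, 3133 and 4102 CPM in young samples. Young samples 2 and 3 were again the high ones. Mrc1, the 1 marker with a positive log2 fold change, did not share this order. It gave 679, 414 and 739 CPM of the sums in old samples, against 401, 452 and 362 CPM in young samples. The part of leukocyte RNA in the values of Itgb2 was not tested.

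Itgb7, another leukocyte beta chain that is shown per sample for comparison with Itgb2, had 5.24, 0 and 25.5 CPM in old samples, against 0, 9.19 and 1.76 CPM in young samples. A count of 0 allows up to 0.218 CPM in old sample 2 and 0.186 CPM in young sample 1, which covers counting error alone. Its order of samples differed from that of Itgb2, with old sample 3 highest.

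**Figure D2:**
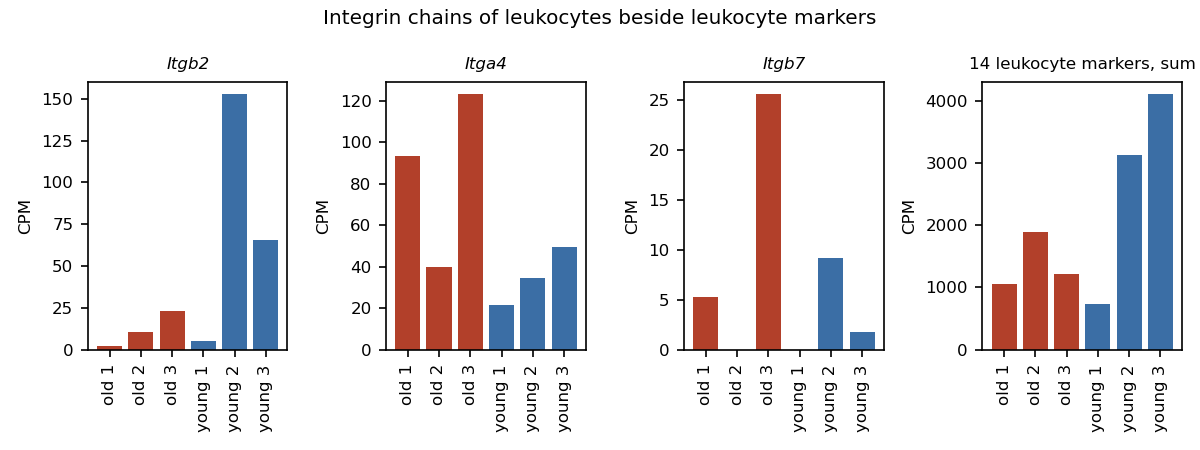
Level in CPM per sample of 3 integrin chains known from leukocytes, and of the sum of 14 leukocyte markers, with old samples left of young samples. Itgb2 and the marker sum are highest in young samples 2 and 3, whereas Itga4 is highest in old samples 3 and 1.

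Among the remaining beta chains, Itgb4 alone did not overlap between the groups. Itgb4, the laminin-binding partner of alpha6 that is best known from epithelial hemidesmosomes, had 43.4, 86.6 and 42.4 CPM in old samples, against 13.4, 33.2 and 42.0 CPM in young samples. The groups were separated by less than 1 CPM, and the log2 fold change was 0.96 (SE 0.60). The 4 epithelial markers in the table summed to 10.8 to 40.8 CPM in old and 1.94 to 7.94 CPM in young cells, and Epcam, Krt8 and Krt18 were at 0 in at least 2 samples each, while Cdh1 made up most of the sum. The part of epithelial RNA in Itgb4 was not tested. Itgb3, which pairs with alphav and, on platelets, with the product of Itga2b, had 57.9, 50.8 and 26.1 CPM in old samples, against 12.7, 78.0 and 30.2 CPM in young samples. The groups overlapped fully. Its platelet partner Itga2b stayed at 0.145 to 3.22 CPM in old and 0.135 to 1.73 CPM in young cells. Itgb8 and Itgb6, which pair with alphav to activate latent TGF-beta, ranged from 0.748 to 24.7 CPM and from 0.299 to 2.54 CPM in old samples, against 5.83 to 13.4 CPM and 1.37 to 2.73 CPM in young samples.

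Per kilobase, neither the sum of the beta chains nor the share of Itgb1 in it separated the groups, but shares within a subset of 4 chains did. The sum was 165, 165 and 187 CPM per kilobase in old samples, against 114, 247 and 182 CPM per kilobase in young samples. Itgb1 made up 82.2%, 71.7% and 78.2% of it in old samples, against 79.2%, 46.3% and 57.7% in young samples, and the groups overlapped. Among the beta chains that pair with alphav and not with the many partners of Itgb1 (Itgb3, Itgb5, Itgb6 and Itgb8), Itgb5 made up 51.6%, 64.3% and 70.4% in old samples, against 84.8%, 80.3% and 87.3% in young samples. Itgb3 made up 47.8%, 27.8% and 24.8% in old samples, against 10.7%, 17.8% and 10.5% in young samples. Neither share overlapped between the groups, including young sample 1. Both are shares of the same sum, which Itgb5 and Itgb3 mostly fill, so they are not separate observations. These shares were chosen after the values were seen, so no test is attached to them.

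**Figure D3:**
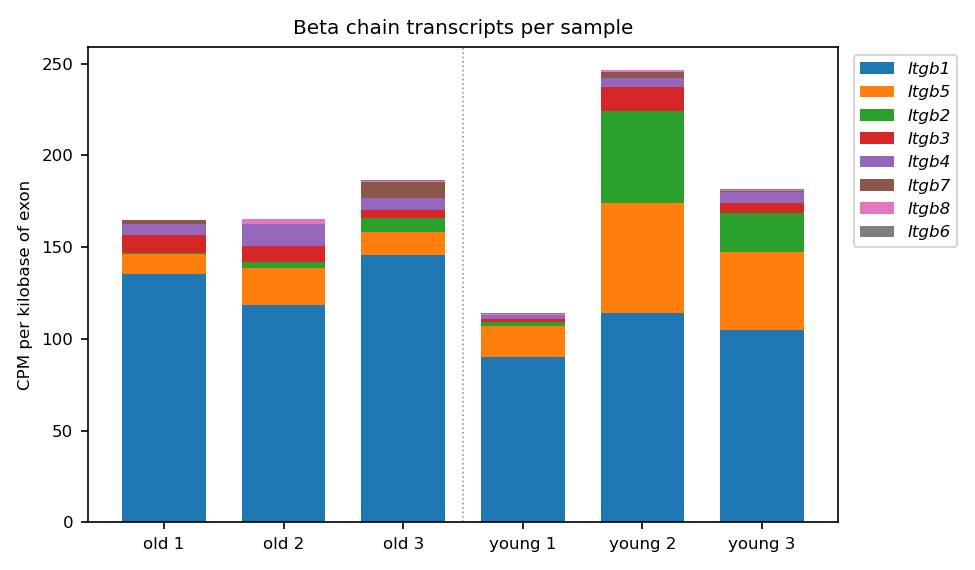
Beta chain transcripts per sample in CPM per kilobase of exon, stacked by gene, with old samples left of young samples. Itgb1 is the largest segment of each bar, at 46.3% in young sample 2 and more in the others, and the Itgb5 and Itgb2 segments are largest in young samples 2 and 3.

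Among the alpha chains, Itga4 differed most. Its product pairs with beta1 or beta7 and binds VCAM-1 and fibronectin on leukocytes and other cells. Itga4 (chr2:79255426-79333123, plus strand) had 93.5, 39.6 and 123 CPM in old samples, against 21.7, 34.6 and 49.6 CPM in young samples. Old samples 1 and 3 lay above every young sample, and old sample 2 lay among the young samples. The log2 fold change was 1.27 (SE 0.55), or 2.42-fold, with edgeR unadjusted p = 0.0469 and adjusted p = 0.888. The order of samples was not that of the leukocyte marker sum, which was highest in young samples 2 and 3. Mrc1, the 1 marker of that sum with a positive log2 fold change, was highest in old samples 3 and 1, as Itga4 was. Yet Mrc1 had 401 CPM in young sample 1, where Ptprc had 0.993 CPM, and its cell source was not tested. The part of leukocyte RNA in Itga4 was not tested. The 6 lymphocyte markers in the table summed to 50.8, 43.0 and 11.6 CPM in old samples, against 12.3, 3.30 and 8.46 CPM in young samples, with Cd3e, Trbc2, Cd79b and Ms4a1 at 0 in at least 1 sample each, and their part was not tested. Exons of Itga4 share 1124 bases with the gene Cerkl on the other strand, and the sources used here do not say whether counting used strand.

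The laminin receptors did not move together. Itga6, which pairs with beta1 or beta4, had 115, 138 and 65.5 CPM in old samples, against 132, 208 and 189 CPM in young samples. Old sample 2 just exceeded young sample 1, and the other samples were separated. The log2 fold change was −0.73 (SE 0.36), with edgeR unadjusted p = 0.0762 and adjusted p = 0.891, while its partner Itgb4 had the positive value above. Itga3, a receptor for the laminins of basement membranes, had 45.3, 78.8 and 44.1 CPM in old samples, against 90.2, 24.7 and 31.2 CPM in young samples. The highest and the lowest values were both in young cells. Itga7, known from muscle, was at 0 in old samples 1 and 3 and young sample 1, which allows up to 0.224, 0.146 and 0.186 CPM, and reached 3.49 CPM in old and 4.22 CPM in young cells.

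The collagen receptors all pair with beta1. Itga1, which prefers the collagen of basement membranes, had 224, 193 and 285 CPM in old samples, against 248, 137 and 146 CPM in young samples. Only young sample 1 lay among the old samples, and the log2 fold change was 0.40 (SE 0.32). Its mean CPM was the highest of the alpha chains. Per kilobase of exon, though, Itga1 averaged 11.0 CPM, below Itga5 (20.3), Itga6 (15.7), Itga11 (14.7) and Itgav (13.1). This order depends on the length used. With the longest transcript as length, Itga1 averaged 18.7 CPM per kilobase, above Itga11 (15.2) but below Itga6 (32.8), Itga5 (22.7) and Itgav (20.0). Itga11, a receptor for fibrillar collagen known from fibroblasts, had 48.0, 56.0 and 69.7 CPM in old samples, against 140.1, 88.8 and 49.5 CPM in young samples. Its log2 fold change was −0.68 (SE 0.46), with young sample 1 highest. The 7 fibroblast markers, all with a negative log2 fold change, summed to 2328, 2281 and 2465 CPM in old samples, against 6866, 4878 and 4521 CPM in young samples. Young sample 1 was highest in both, and the part of fibroblast RNA in Itga11 was not tested. Itga10 and Itga2 ranged from 6.10 to 23.4 CPM and from 1.27 to 18.1 CPM in old samples, against 3.10 to 25.7 CPM and 5.79 to 11.1 CPM in young samples.

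The alpha chains of receptors for the RGD sequence of fibronectin and vitronectin overlapped between the groups. Itgav had 135, 180.1 and 97.1 CPM in old samples, against 187, 114 and 132 CPM in young samples. Its log2 fold change was −0.07 (SE 0.35), beside the −1.47 of its partner Itgb5. Itga5, the fibronectin receptor chain, had 249, 43.0 and 69.0 CPM in old samples, against 158, 37.5 and 43.4 CPM in young samples. Sample 1 of each group was its highest, and the log2 fold change of 0.60 (SE 0.76) became −0.51 without old sample 1. Itga8, a chain known from smooth muscle and mesenchyme, had 79.1, 25.1 and 12.3 CPM in old samples, against 51.3, 22.0 and 25.5 CPM in young samples. It was also highest in sample 1 of each group, and its log2 fold change of 0.24 (SE 0.76) became −0.82 without old sample 1. The 9 pericyte and smooth muscle markers summed to 2016, 859.7 and 1154 CPM in old samples, against 959, 625 and 641 CPM in young samples, likewise with sample 1 highest in each group, and their part in Itga5 and Itga8 was not tested.

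**Figure D4:**
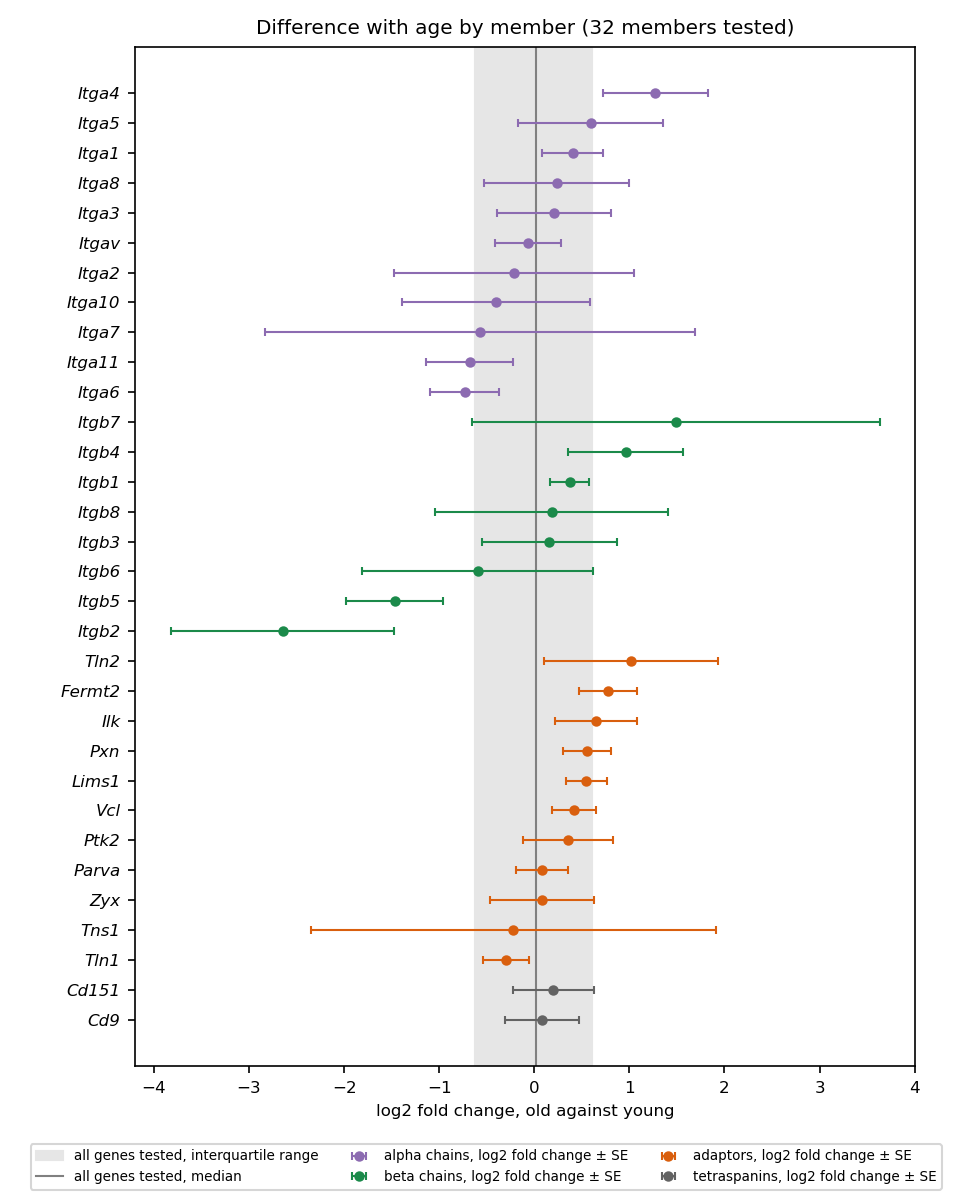
Log2 fold change of old against young for the 32 members tested, with bars of 1 standard error, ordered by role, over the median (line) and interquartile range (grey band) of all 15394 genes tested. The beta chains run from −2.65 to 1.49, and 9 of the 11 adaptors lie right of 0.

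The log2 fold changes of the adaptors had a narrower range than those of the chains. Of the 11, 9 were positive, against 51% of all genes tested, and Parva and Zyx turned negative with library size as the only scaling. The kindlin gene Fermt2, whose product binds beta tails next to talin and is the kindlin of most tissues, had 196, 139 and 179 CPM in old samples, against 90.1, 122 and 88.4 CPM in young samples. Every old sample lay above every young sample. Old cells were 1.71-fold higher, a log2 fold change of 0.78 (SE 0.30), with edgeR unadjusted p = 0.0315 and adjusted p = 0.888. Talin, which Tln1 and Tln2 encode, showed no such separation. Tln1 had 192, 256 and 243 CPM in old samples, against 315, 251 and 286 CPM in young samples, a log2 fold change of −0.30 (SE 0.24). Tln2 had 35.1, 12.4 and 58.9 CPM in old samples, against 16.2, 3.55 and 32.9 CPM in young samples, a log2 fold change of 1.02 (SE 0.92). Both overlapped between the groups, and Tln2 made up 2.52% to 11.4% of talin transcripts per kilobase in old and 0.750% to 5.77% in young samples. The ratio of Fermt2 to Tln1 per kilobase was 1.93, 1.02 and 1.39 in old samples, against 0.540, 0.916 and 0.583 in young samples, without overlap; this ratio was chosen after the values were seen.

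The complex of integrin-linked kinase, PINCH1 and alpha-parvin, encoded by Ilk, Lims1 and Parva, differed in its parts. Lims1 (chr10:58323466-58424691, plus strand) had 387, 359 and 323 CPM in old samples, against 258, 247 and 228 CPM in young samples. The groups did not overlap and the spread within each was small. Old cells were 1.46-fold higher, a log2 fold change of 0.55 (SE 0.22), with edgeR unadjusted p = 0.0332 and adjusted p = 0.888. Ilk had 69.6, 96.3 and 179.5 CPM in old samples, against 91.3, 67.6 and 60.6 CPM in young samples, with old sample 3 far above the rest. Its log2 fold change was 0.65 (SE 0.43), and 0.18 without old sample 3. Ilk is uncertain, because 2106 of its exon bases are shared with Taf10 on the other strand and a processed pseudogene matches 502 bases at 96.0% identity. Parva, which has a lincRNA relative with 328 matching bases, had 142, 205 and 194 CPM in old samples, against 154, 172 and 185 CPM in young samples. Its log2 fold change was 0.09 (SE 0.27). Lims1 transcripts outnumbered those of Ilk per kilobase by 3.12, 2.09 and 1.01 times in old samples, against 1.59, 2.05 and 2.11 times in young samples, and these ratios overlapped.

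Pxn and Vcl, for paxillin, a scaffold of focal adhesions, and vinculin, which links talin to actin under tension, were among the most abundant adaptors. Pxn had 405, 643 and 597 CPM in old samples, against 339, 333 and 448 CPM in young samples. Only young sample 3 reached into the old range, and the log2 fold change was 0.55 (SE 0.25), with edgeR unadjusted p = 0.0536 and adjusted p = 0.888. Vcl had 269, 312 and 293 CPM in old samples, against 210.4, 243 and 199 CPM in young samples. Its groups did not overlap, and the log2 fold change was 0.42 (SE 0.23). Vcl shares 2090 exon bases with Ap3m1 on the other strand. Shorter shared stretches touch Tln1 and Creb3, Zyx and Epha1, and Itga1 and Gm49395. Itgb4 shares 537 exon bases with a lincRNA on the other strand. Itgav, Itga7, Itga8, Itga10, Cd9 and Cd151 also share exon bases with another gene. A processed pseudogene of Itga6 matches 326 of its bases. Small differences in all these genes are uncertain too.

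The kinase gene Ptk2 had 184, 49.3 and 101 CPM in old samples, against 94.9, 82.2 and 84.3 CPM in young samples. Its product is focal adhesion kinase, and the old samples held both its highest and its lowest value. The log2 fold change of 0.35 (SE 0.47) became −0.21 without old sample 1. Zyx, for the actin-associated protein zyxin, had 142, 43.2 and 95.3 CPM in old samples, against 131, 43.2 and 91.1 CPM in young samples. The groups overlapped throughout, with a log2 fold change of 0.08 (SE 0.55). Tns1, a tensin that binds beta tails at fibrillar adhesions, had 0, 32.3 and 47.5 CPM in old samples, against 0, 3.30 and 89.8 CPM in young samples. Sample 1 of each group held 0 counts, which allows up to 0.224 CPM in the old and 0.186 CPM in the young sample, while young sample 3 held 1995 counts.

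The tetraspanins Cd9 and Cd151, which gather integrins into membrane domains, did not separate the groups. Cd9 had 68.4, 126 and 128 CPM in old samples, against 71.8, 104 and 128 CPM in young samples, a log2 fold change of 0.08 (SE 0.39). Cd151, the partner of the laminin-binding integrins, had 51.6, 135 and 104 CPM in old samples, against 99.4, 86.2 and 67.5 CPM in young samples. Its log2 fold change was 0.20 (SE 0.43).

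The chains were set against the adaptors in level and in log2 fold change, as a description. All 11 adaptors averaged at least 20 CPM over the samples, against 13 of the 20 chains. Per kilobase of exon, the median level was 26.2 CPM over the adaptors and 6.71 CPM over the chains. The median log2 fold change was 0.42 over the 11 adaptors, with an interquartile range of 0.08 to 0.60. Over the 19 chains tested it was 0.16, with an interquartile range of −0.58 to 0.39 and 10 of 19 positive. Over all genes tested it was 0.02, with an interquartile range of −0.62 to 0.60 and a share of 51% positive. Of the chains, the alpha chains had a median of −0.07 with 5 of 11 positive and the beta chains 0.17 with 5 of 8 positive. With the chains held to those of at least 20 CPM, as all adaptors were, their median was 0.20 with 8 of 13 positive. The members were chosen by name and are not replicates, so no test is attached to these medians.

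In each sample, the mean log2 CPM of the 19 chains lay below that of the 11 adaptors. The difference was −2.03, −2.16 and −2.60 in old samples, against −1.88, −0.946 and −2.04 in young samples. The old samples lay lower except that young sample 3 fell just below old sample 1. Each gene weighs alike in these means, also 1 near 0. The order therefore depends on Tns1, which had 0 counts in sample 1 of each group and 1995 in young sample 3. The order with Tns1 left out is not given here. The 8 lymphatic endothelial markers, all with a positive log2 fold change, had a median of 0.49, close to the adaptors' 0.42, and 6 of 8 had every old sample above every young one. The 6 blood endothelial markers were likewise all positive, with a median of 0.99 and 4 of 6 without overlap. Of the 9 pericyte and smooth muscle markers, 7 were positive, with a median of 0.69, 3 lay higher in old cells without overlap, and Cnn1 and Cspg4 were at 0 in a sample each. The part of RNA from these 3 cell types in the adaptors' difference was not tested.

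**Figure D5:**
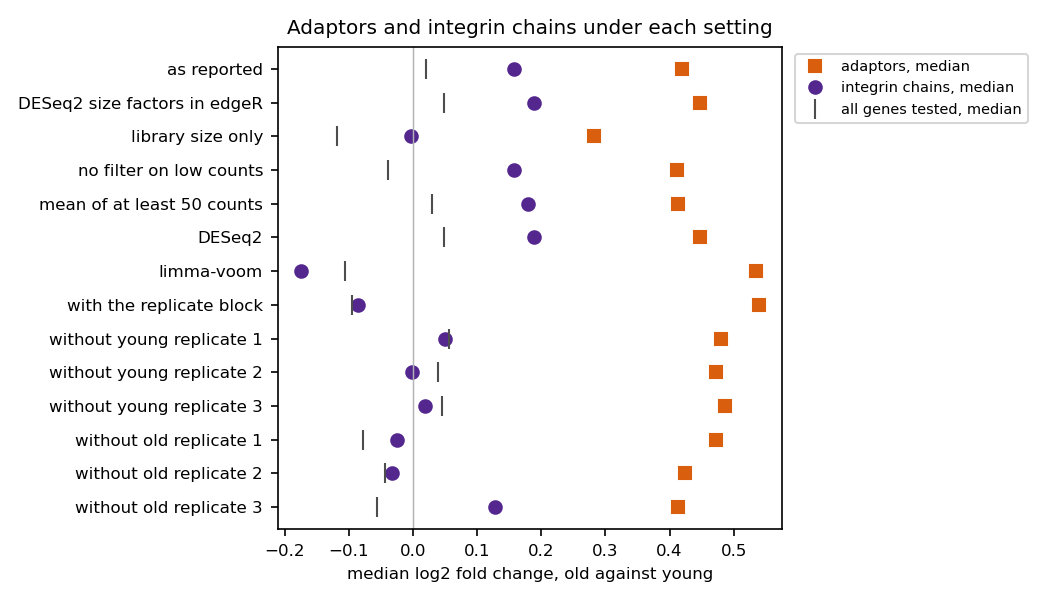
Median log2 fold change, old against young, of the 11 adaptors (squares), the integrin chains (circles) and all genes tested (ticks), as reported and under 13 other settings. The squares lie right of the circles in each row, and the circles fall on both sides of 0.

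The adaptors' median lay above that of the chains under each of the 13 other settings. It ran from 0.41 to 0.49 when each sample was left out and from 0.28 to 0.54 under the other settings. The lowest came with library size as the only scaling, where the median of all genes was −0.12. Taken from the median of all genes, the adaptors lay 0.38 to 0.64 above it. The chains' median was positive under 7 and negative under 6 of the 13 settings.

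Promoter sequence is given for 4 members: Itgb1, Vcl and Fermt2, picked after the motif search from the members that were higher in old cells without overlap because their windows hold a motif, and Itgb5, which was lower and holds none of those marked. Each is the 250 bases before the RefSeq start site in GRCm38.p6, 5′ to 3′ on the gene's strand, with capitals marking a CArG box, the site of serum response factor (CC, then 6 letters of A or T, then GG), or a TEAD site CATTCC, both searched on both strands.
Vcl (chr14:20929148-20929397, plus strand): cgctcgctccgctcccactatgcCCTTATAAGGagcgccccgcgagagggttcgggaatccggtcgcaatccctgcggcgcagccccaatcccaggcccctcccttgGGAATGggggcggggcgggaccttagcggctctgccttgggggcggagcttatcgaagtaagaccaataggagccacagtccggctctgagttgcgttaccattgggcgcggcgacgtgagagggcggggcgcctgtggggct
Fermt2 (chr14:45530066-45530315, minus strand): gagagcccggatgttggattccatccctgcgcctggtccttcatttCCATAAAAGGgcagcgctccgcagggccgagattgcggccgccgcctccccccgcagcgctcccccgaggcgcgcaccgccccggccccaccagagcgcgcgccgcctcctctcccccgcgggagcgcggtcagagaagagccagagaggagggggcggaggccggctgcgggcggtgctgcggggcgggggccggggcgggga
Itgb1 (chr8:128685404-128685653, plus strand): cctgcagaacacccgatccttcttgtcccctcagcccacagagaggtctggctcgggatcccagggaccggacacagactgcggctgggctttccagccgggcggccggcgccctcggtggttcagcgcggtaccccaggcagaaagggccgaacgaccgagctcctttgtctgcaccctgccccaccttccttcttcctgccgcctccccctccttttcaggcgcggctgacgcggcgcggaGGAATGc
Itgb5 (chr16:33829415-33829664, plus strand): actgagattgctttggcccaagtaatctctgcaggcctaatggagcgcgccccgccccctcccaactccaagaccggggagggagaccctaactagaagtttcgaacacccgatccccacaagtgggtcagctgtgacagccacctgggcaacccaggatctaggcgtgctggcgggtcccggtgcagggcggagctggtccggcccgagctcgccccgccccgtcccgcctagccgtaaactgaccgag
A CArG box stood in the windows of Vcl and Fermt2, and the TEAD letters in those of Vcl and Itgb1. Lims1, which was also higher without overlap, has 3 start sites, and none of their windows held either motif. The fifth such gene was Itgb4. RefSeq promoters were matched for 24 of the 33 genes, with 30 start sites. A CArG box was found in 3 of the 30 windows, against 1.47% of all 32851 promoter windows of this length, the third being a start site of the sparsely expressed Itgb6. The TEAD letters were found in 3 of the 30, against 12.6% of all. An AP-1 site, TGANTCA, was found in 1 of the 30, that of Zyx, against 6.75% of all, and a GC box, GGGCGG, in 14 of the 30 (46.7%), against 32.7% of all. These matches are letters in a window and not measured sites.

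Other genes of the adhesion machinery gave a comparison. Of 78 such genes in the table, 74 were tested, with a median log2 fold change of −0.03, 35 positive and 39 negative. None passed the edgeR test, with a lowest adjusted p of 0.687. At an unadjusted p under 0.05 there were 3, all higher in old cells, or 4.05% against the background of 5.56%. Among these were Sorbs2 and Tns2. Sorbs2, an adaptor between actin and membrane contacts, had 365, 168 and 238 CPM in old samples, against 116, 93.0 and 104 CPM in young samples, a log2 fold change of 1.30 (SE 0.34). Tns2, a tensin, had 404, 523 and 513 CPM in old samples, against 273, 287 and 305 CPM in young samples, a log2 fold change of 0.74 (SE 0.21). In both genes every old sample lay above every young sample. Of the other tensins, Tns3 went the other way without overlap, with 99.0, 92.3 and 109 CPM in old samples, against 134, 178 and 156 CPM in young samples. Tns4, at 0.150 to 4.72 CPM over all samples, was also lower in old cells without overlap. Of the 74 genes tested, 6 lay higher and 3 lower in old cells without overlap, against backgrounds of 5.56% and 6.44% of all genes. Of the listed adaptors outside the 11, 13 of 28 tested were positive, with a median of −0.02. Itga9, the lymphatic valve chain that pairs with beta1, had 197, 134 and 189.9 CPM in old samples, against 114, 257 and 217 CPM in young samples, and overlapped between the groups.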

How the data were processed

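FastQC, Salmon and mm10 (GRCm38) are listed, without version or role, per the submitters' processing notes. The authors deposited estimated counts per gene, already whole numbers; these notes state neither annotation nor strandedness nor the step from transcripts to genes. RNA was amplified linearly, per the labels' protocols, which can add scatter at low levels. Salmon divides shared reads by likelihood. Of the 22964 genes, 22738 had a symbol in GENCODE M21.

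From these counts, CPM were scaled to TMM-adjusted library sizes. The edgeR package (4.0.16, under R 4.3.3) tested age with a robust, two-sided quasi-likelihood fit at a Benjamini-Hochberg threshold of 0.05. Its filterByExpr step, at a minimum of 10 counts and a total of 15, left out 7570 genes and kept 15394. Fold changes have old cells on top. Log2 CPM used a prior of 2. Lengths are the union of GENCODE M21 exons. Genes that share at least 300 bases at 95% identity were found by alignment of transcripts. Values per sample are given for tested members of at least 20 CPM on average, at an unadjusted p under 0.05 or without overlap; others are given by range, except Itgb7, which was chosen after its values were seen. From the pathway list, up to 8 genes at an unadjusted p under 0.05 were to be named, of which 1 is not reported here, and others were named after their values were seen. The members and lists were chosen with earlier results of these data known.

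On counts simulated for old against young over 15394 genes, edgeR recovered 0% of 64 genes changed 2-fold, 3.12% of 64 changed 4-fold and 21% of 62 changed 8-fold, with 1 false call among 16. Alternatives were DESeq2 1.42.0, limma-voom from limma 3.58.1, other scalings and filters, each sample left out, and the replicate number as a block. The 0 limits are 3 counts per sample and cover counting error alone.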

Additional observations from a re-analysis of the deposited data

How the results depend on the processing

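No member passed the adjusted threshold under any of the 13 settings, whose tests other than DESeq2 and limma-voom were edgeR fits. Over all genes the calls were 130 by DESeq2, 3 by limma-voom and 0 to 1 with a sample left out, against 0 as reported. At an unadjusted p under 0.05 the count of genes was 1543 with no filter, 1374 by DESeq2 and 696 to 1396 with a sample left out, against 856. The count of members was 1 to 4 with a sample left out, against 4. The cause was not tested. Deviations of same-numbered samples from their group means correlated at 0.08, 0.05 and −0.01. With 3 samples in each group, such values cannot settle whether the replicate numbers pair the samples. Old sample 1 correlated best with young sample 1, and old samples 2 and 3 with a young sample of another number. With the replicate number as a block, 2 members had an unadjusted p under 0.05, Itgb2 and Itgb5 (6.25% of members, against 4.63% of all genes), and Lims1, Itga4 and Fermt2 no longer did. The block gave −0.070 for Itga8, −0.80 for Itgb8 and 1.12 for Tns1, each with the sign turned. The alpha chains' median log2 fold change was −0.21 with library size only, 0.063 with no filter, 0.055 at a mean of at least 50 counts and −0.043 to 0.25 with a sample left out, against −0.07.

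Of 32 members, 17 kept their sign under every setting run. With library size only, the values were −0.0033 for Itgb3, −0.048 for Parva, −0.069 for Zyx and −0.047 for Cd9. Limma-voom gave −0.18 for Itga8, −0.84 for Itgb8 and 0.86 for Tns1. With a sample left out, log2 fold changes ran from −2.53 to 0.28 for Itga2, −0.13 to 1.00 for Itga3, −0.51 to 1.57 for Itga5, −7.99 to 1.26 for Itga7, −0.82 to 0.70 for Itga8, −0.31 to 0.16 for Itgav, −0.28 to 1.06 for Itgb3, −0.48 to 3.54 for Itgb7 and −1.53 to 0.73 for Itgb8. They ran from −0.21 to 0.71 for Ptk2, −0.020 to 0.23 for Parva, −0.35 to 0.48 for Zyx, −0.94 to 4.0 for Tns1, −0.11 to 0.32 for Cd9 and −0.12 to 0.50 for Cd151. With the longest transcript as length, Itgb1 averaged 126 CPM per kilobase over the samples, against 118.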

Other observations

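Beyond the genes above, 3 integrin-side proteins known from blood cells were highest in young samples 2 and 3, as Itgb2 was, and were picked after their values were seen. Fermt3, the kindlin of blood cells, had 0.673, 12.1 and 23.7 CPM in old samples, against 8.44, 46.9 and 63.8 CPM in young samples. Parvg, the parvin of blood cells, had 0.823, 7.26 and 0.244 CPM in old samples, against 4.22, 28.9 and 22.5 CPM in young samples. Itgam, the alpha partner of beta2 on myeloid cells, had 31.4, 135 and 45.8 CPM in old samples, against 13.2, 320.1 and 449 CPM in young samples. The tetraspanins of leukocytes, Cd53 and Cd37, were also highest there. None passed the edgeR test.

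Among the 19 other tetraspanins tested, 9 had a positive and 10 a negative log2 fold change, with a median of −0.12. Cd81, the most abundant, had 697, 638 and 451 CPM in old samples, against 484, 673 and 795 CPM in young samples. Tspan6 had 44.7, 29.3 and 31.2 CPM in old samples, against 57.5, 48.1 and 57.1 CPM in young samples, and its groups did not overlap. The same held in the other direction for Cd82, with 59.4, 27.0 and 28.2 CPM in old samples, against 20.6, 15.6 and 19.4 CPM in young samples. So 1 of the 19 lay lower and 1 higher in old cells without overlap, against backgrounds of 6.44% and 5.56% of all genes.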
